A study of Homo sapiens with 3 samples.

Results

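The translation initiation factors (EIF genes) and elongation factors (EEF genes) were followed gene by gene in 3 Drop-seq single-cell RNA-seq libraries of 2 prostate cancer cell lines. Members were gene rows whose symbol begins with EIF1 to EIF6 or EEF1 to EEF2, followed only by letters and digits. The eIF2α kinases (EIF2AK genes) and pseudogenes were left out, and the translation inhibitors EIF4EBP1 and EIF4EBP2 stayed in. Their paralog EIF4EBP3, which is no pseudogene, was left out because its symbol ends in P and a digit and the rule makes no exception for it. The rule found 65 of the 33423 genes in the files. Levels are given for 64 of them, since the Y-linked member EIF1AY was counted but not measured here. VCaP parental held VCaP cells kept for 48 h in 0.1% DMSO, the vehicle. VCaP cells exposed for 48 h to 10 µM enzalutamide (ENZ), an inhibitor of the androgen receptor, made up VCaP–ENZ48. The LNCaP library, LNCaP–ENZ168, came from cells exposed to the same dose for 168 h. All were sensitive, not resistant, lines by their labels, and the LNCaP medium was RPMI whereas the VCaP medium was DMEM. With 1 library a group there are no replicates, no test was made, and intervals cover counting error only.

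Protein synthesis begins when eIF2 brings the initiator tRNA to the small ribosomal subunit, together with eIF1, eIF1A, eIF5 and the large scaffold complex eIF3. The cap-binding protein eIF4E, the scaffold eIF4G and the helicase eIF4A recruit the mRNA, and 4E-BP proteins block eIF4E when mTOR signalling is low. During elongation eEF1A delivers aminoacyl-tRNA, the eEF1B subunits recharge eEF1A with GTP, and eEF2 moves the ribosome along. Many mRNAs of ribosomal proteins and elongation factors start with a C followed by an unbroken stretch of pyrimidines, the terminal oligopyrimidine (TOP) motif, through which mTOR regulates their translation.

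The start sites of the members are shown first, since the ratios between the VCaP libraries were arranged by them. Each window runs from 10 bases before the RefSeq start site (GRCh38.p14) and covers 30 bases, so base 11 is the first transcribed base. Capitals mark a run that opens with C at the start site and continues through at least 4 more C or T bases. The first group of lines has the run, and the last group, taken from members at lower level in VCaP–ENZ48 and from EIF1, does not.
EEF1A1 (chr6:73521013-73521042, minus strand): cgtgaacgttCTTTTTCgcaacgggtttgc
EEF1B2 (chr2:206159885-206159914, plus strand): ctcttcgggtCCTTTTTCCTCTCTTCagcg
EEF2 (chr19:3985444-3985473, minus strand): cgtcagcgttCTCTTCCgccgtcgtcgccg
EIF4B (chr12:53006446-53006475, plus strand): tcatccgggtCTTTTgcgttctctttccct
EIF3F (chr11:7987327-7987356, plus strand): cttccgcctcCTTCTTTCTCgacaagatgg
EIF4A2 (chr3:186783567-186783596, plus strand): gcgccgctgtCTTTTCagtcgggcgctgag
EIF3D (chr22:36529147-36529176, minus strand): cgcatgtttcCTCTTTTCCTggtttctcaa
EIF3K (chr19:38619178-38619207, plus strand): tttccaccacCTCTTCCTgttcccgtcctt
EIF4E (chr4:98929114-98929143, minus strand): tggagcggttgtgcgatcagatcgatctaa
EIF2B2 (chr14:75002911-75002940, plus strand): cgcccgccccggaagtgcaaactgtgtggt
EEF1E1 (chr6:8102529-8102558, minus strand): tgcaggtctcgcgtctgccaggagctacgg
EIF1 (chr17:41688875-41688904, plus strand): ccgcccctctgccccagtcactgagccgcc
In all, 13 members had the run at an annotated start: those printed in the first group and EIF2A, EIF2D, EIF2S3, EIF2S3B and EIF3M. A further 37 had an entry without it and 14 had no entry. EEF1B2 has a second annotated start without the run. Among all promoter entries, 4.07% of 35116 opened with such a run, on the transcribed strand. Counted by gene, as the members are, 1404 of 27305 genes with an entry, or 5.14%, had it at an annotated start. This grouping was made after the ratios had been seen, so it is a description with no test, and a run is only a match of letters.

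The libraries differed in depth and state. After filtering, 944 cells of LNCaP–ENZ168, 997 of VCaP parental and 947 of VCaP–ENZ48 remained of 1000 barcodes each, with medians of 5389, 17817 and 11224 UMIs (unique molecular identifiers, 1 for each captured mRNA molecule). Mitochondrial transcripts made up 8.94%, 6.24% and 7.49% of UMIs in the same order. Cells with few transcripts of S and G2M phase genes, here called low-cycling, were 56.3% of LNCaP–ENZ168, 25.1% of VCaP parental and 88.8% of VCaP–ENZ48 cells. Barcodes ending in N in place of a base made up 21.2% in LNCaP–ENZ168, 86.0% in VCaP parental and 86.9% in VCaP–ENZ48. Pairs of libraries shared 1 barcode each. All 5 luminal markers were detected in each library. ERG, which VCaP expresses from a gene fusion, was at 105 counts per 1000000 UMIs (CPM) in VCaP parental, 57.1 CPM in VCaP–ENZ48 and 0 in LNCaP–ENZ168. Markers of basal, stromal, blood and endothelial cells summed to between 9.66 and 28.9 CPM, and 9 of 15 were at 0 in LNCaP–ENZ168, 7 in VCaP parental and 8 in VCaP–ENZ48. Most of the sum in both VCaP libraries came from the stromal marker LUM. It was at 21.0 CPM in VCaP parental, 25.2 CPM in VCaP–ENZ48 and 0.32 CPM in LNCaP–ENZ168.

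The members together took 9533 CPM of VCaP parental (95% interval 9490 to 9577), 10355 CPM of VCaP–ENZ48 (10302 to 10408) and 13148 CPM of LNCaP–ENZ168 (13058 to 13237). The plot of levels by role shows that this sum hid opposite differences. The 6 genes named EEF1A to EEF1G, EEF1E1 among them, summed to 817 CPM in VCaP parental and 1441 CPM in VCaP–ENZ48. Within that sum EEF1A1 alone was at 242 and 741 CPM, whereas EEF1D was at 277 and 249 CPM. The start codon group, by contrast, was at 1613 CPM in VCaP parental and 1337 CPM in VCaP–ENZ48. Ratios below are log2 ratios of CPM + 1 minus the median ratio of every gene averaging 10 CPM or more in the pair, called relative log2 ratios. That median was −0.07 for the VCaP pair and 0.65 for LNCaP–ENZ168 over VCaP–ENZ48.

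**Figure D1:**
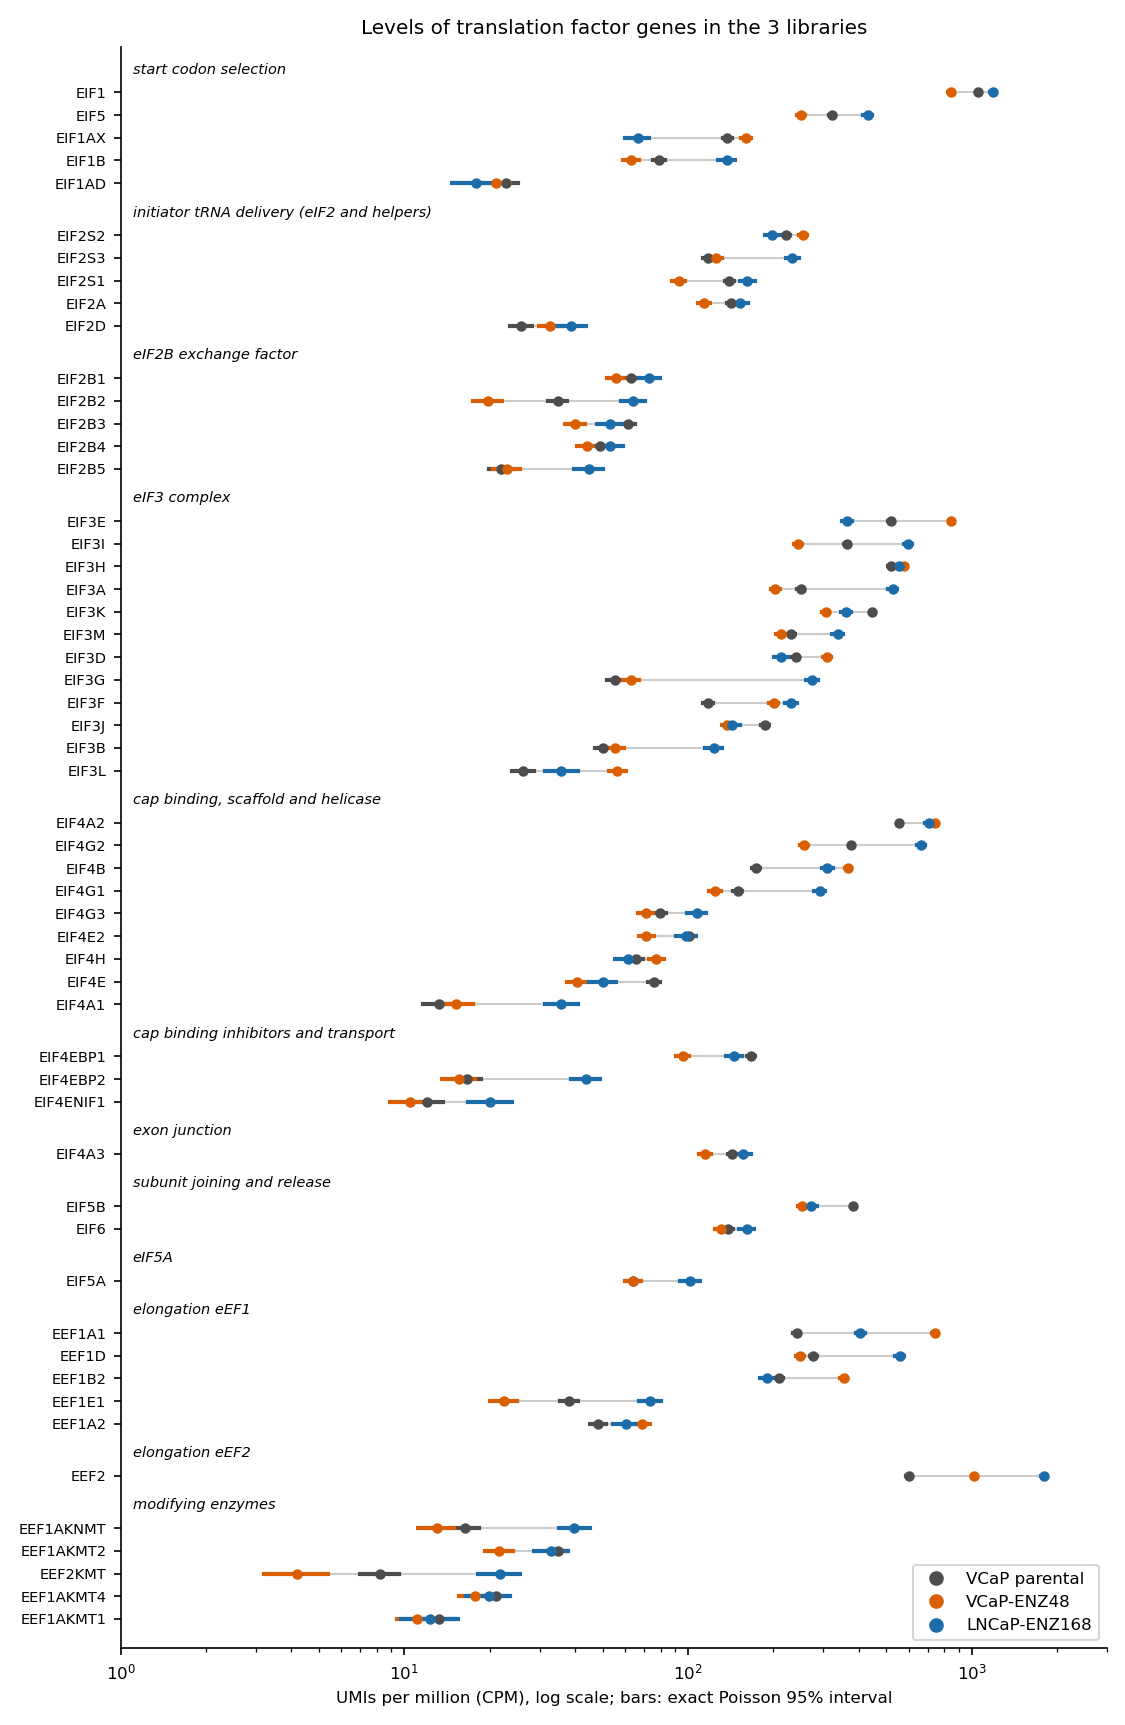
Level in CPM, on a log axis, of each member averaging 10 CPM or more in either comparison, grouped by role. Points are the 3 libraries and bars are exact Poisson 95% intervals. EEF1A1 lies at 242 CPM in VCaP parental and 741 CPM in VCaP–ENZ48, while EIF4E lies at 76.0 and 40.6 CPM.

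The first comparison asked how the factors differed between VCaP cells with and without ENZ for 48 h. The elongation factors EEF1A1, EEF1B2 and EEF2, the eIF3 subunits EIF3E, EIF3F and EIF3L and the helicase cofactor EIF4B were higher in VCaP–ENZ48. EIF4E, its inhibitor EIF4EBP1, EIF2B2, EEF1E1 and EEF1AKMT2 were lower. Of 53 members with enough UMIs, 7 were at least 1.5-fold higher than the median gene, or 13.2%, where 17.5% of all 7729 genes were. At least 1.5-fold lower were 5 members, or 9.43%, where 15.0% of all genes were. Both shares lay below those of all genes, and the members' median relative log2 ratio was −0.09 (quartiles −0.30 and 0.26).

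EEF1A1 (GRCh38 chromosome 6, 73489308 to 73525587), the main carrier of aminoacyl-tRNA, was at 242 CPM in VCaP parental, 741 CPM in VCaP–ENZ48 and 405 CPM in LNCaP–ENZ168. Its relative log2 ratio of 1.68 between the VCaP libraries (95% interval 1.63 to 1.73, or 3.20-fold) was the highest of the 53 members. EEF1A2 (chromosome 20, 63488013 to 63499239), the tissue-restricted paralog, was at 48.1, 69.1 and 60.5 CPM in the same order, and its ratio of 0.58 (0.46 to 0.72) lay just inside the 1.5-fold limit of 0.585. EEF1B2 (chromosome 2, 206159585 to 206162928), a nucleotide exchange subunit, was at 210, 353 and 190 CPM, a relative log2 ratio of 0.81 (0.76 to 0.88). Another exchange subunit did not share this. EEF1D was at 277, 249 and 557 CPM, a ratio of −0.09 (−0.15 to −0.03). EEF1E1, an accessory protein of the tRNA synthetase complex despite its name, was at 38.1, 22.5 and 73.5 CPM, a ratio of −0.67 (−0.89 to −0.51). With only barcodes ending in a base, the EEF1E1 ratio was −0.22, inside the limit.

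EEF2 (chromosome 19, 3976056 to 3985463), the translocation factor, was at 599 CPM in VCaP parental, 1023 CPM in VCaP–ENZ48 and 1793 CPM in LNCaP–ENZ168, a relative log2 ratio of 0.84 (0.80 to 0.87) in the VCaP pair. EEF2K, the kinase that inhibits eEF2, was at 4.92, 4.48 and 12.04 CPM, under the expression minimum in the pair. Of the 4 eEF1A methyltransferases measured in the pair, 0 were 1.5-fold higher and 1 was lower. EEF1AKMT2 was at 34.7 CPM in VCaP parental and 21.6 CPM in VCaP–ENZ48, a ratio of −0.59 (−0.82 to −0.42), and EEF1AKMT1, EEF1AKMT4 and EEF1AKNMT lay between −0.25 and −0.17. EEF1AKMT3, at 3.07 and 5.87 CPM, and the eEF2 methyltransferase EEF2KMT, at 8.20 and 4.20 CPM, were under the expression minimum.

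Among the initiation factors, the start codon group (EIF1, EIF1B, EIF1AX, EIF1AD, EIF5) held no member past 1.5-fold in the VCaP pair. EIF1, which keeps the scanning ribosome open, was at 1051 CPM in VCaP parental and 843 CPM in VCaP–ENZ48, a ratio of −0.25 (−0.28 to −0.22). EIF5, the GTPase activator of eIF2, had the lowest ratio of the group at −0.30, and EIF1AX the highest at 0.29. The 3 subunits of eIF2 differed in direction. EIF2S1, the α subunit that stress kinases phosphorylate, was at 140 CPM in VCaP parental and 92.7 CPM in VCaP–ENZ48, a ratio of −0.52 (−0.62 to −0.43). EIF2S2, the β subunit, had a ratio of 0.26 (0.20 to 0.32) and EIF2S3, the γ subunit, of 0.16 (0.07 to 0.25). EIF2D, which can place a tRNA without eIF2, was the highest of the delivery group at 25.9 and 32.7 CPM, a ratio of 0.39 (0.22 to 0.59). In eIF2B, the exchange factor that recharges eIF2, EIF2B2 was at 34.7 and 19.7 CPM, a ratio of −0.72 (−0.95 to −0.55). EIF2B3 was next at −0.54 and EIF2B5 the highest at 0.13. The EIF2B2 ratio was −0.32 with only barcodes ending in a base.

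The eIF3 complex, which holds 14 members, was divided. EIF3L (chromosome 22, 37848868 to 37889407) was at 26.2 CPM in VCaP parental and 56.3 CPM in VCaP–ENZ48, a relative log2 ratio of 1.14 (1.01 to 1.33), although 41.1% of its exonic bases overlap another annotated gene on the same strand. EIF3F (chromosome 11, 7970251 to 8001862) was at 117 and 200.3 CPM, a ratio of 0.83 (0.76 to 0.92). EIF3E (chromosome 8, 108162787 to 108443496), which takes part in eIF4G binding, was at 518 and 844 CPM, a ratio of 0.77 (0.73 to 0.81). No eIF3 subunit was 1.5-fold lower, and the lowest were EIF3I at −0.50 (362 and 244 CPM) and EIF3K at −0.48 (446 and 306 CPM). The summed UMIs of the complex differed little, at 3002 CPM in VCaP parental and 3211 CPM in VCaP–ENZ48, a ratio of 0.16.

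At the cap, the helicase cofactor and the cap-binding protein lay at opposite ends. EIF4B (chromosome 12, 53006282 to 53042215), which stimulates eIF4A, was at 174 CPM in VCaP parental and 366 CPM in VCaP–ENZ48, a relative log2 ratio of 1.14 (1.08 to 1.20). EIF4E (chromosome 4, 98879276 to 98929133) was at 76.0 and 40.6 CPM, a ratio of −0.82 (−0.98 to −0.70) and the lowest of the 53 members. EIF4EBP1 (chromosome 8, 38030534 to 38060365) was at 167 and 95.7 CPM, a ratio of −0.73 (−0.83 to −0.64). EIF4EBP2, its paralog, was at 16.7 and 15.5 CPM, a ratio of −0.03 (−0.29 to 0.22). Among low-cycling cells alone the EIF4EBP2 ratio was 0.67, past the 1.5-fold limit. The scaffolds lay between these, with EIF4G1 at −0.20, EIF4G3 at −0.10 and EIF4G2, which lacks the eIF4E-binding site, at −0.49. The helicase EIF4A2 was at 555 and 745 CPM, a ratio of 0.49 (0.45 to 0.53). EIF4A1 was at 13.2 and 15.2 CPM, a level that is uncertain because 47.4% of its exonic bases are shared with readthrough and small RNA genes on the same strand. The transport protein EIF4ENIF1 had a ratio of −0.12, and the exon junction helicase EIF4A3 of −0.25.

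The late factors with enough UMIs lay within 1.5-fold. EIF5B, which joins the subunits, was at 383 CPM in VCaP parental and 252 CPM in VCaP–ENZ48, a ratio of −0.53 (−0.59 to −0.48). EIF6, which keeps the large subunit apart, was at 138 and 131 CPM, a ratio of −0.02 (−0.10 to 0.07). EIF5A, which helps stalled peptide bonds to form, was at 64.2 and 64.0 CPM, a ratio of 0.06 (−0.06 to 0.19). The 11 members below the minimum in the VCaP pair were EEF1AKMT3, EEF1G, EEF2K, EEF2KMT, EIF2S3B, EIF3C, EIF3CL, EIF4E1B, EIF4E3, EIF5A2 and EIF5AL1, none above 21.7 CPM in any library. EIF3CL and EIF4E1B had 0 UMIs in LNCaP–ENZ168, which allows up to 0.475 CPM, and EIF3CL had 0 UMIs in VCaP–ENZ48, which allows up to 0.21 CPM.

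**Figure D2:**
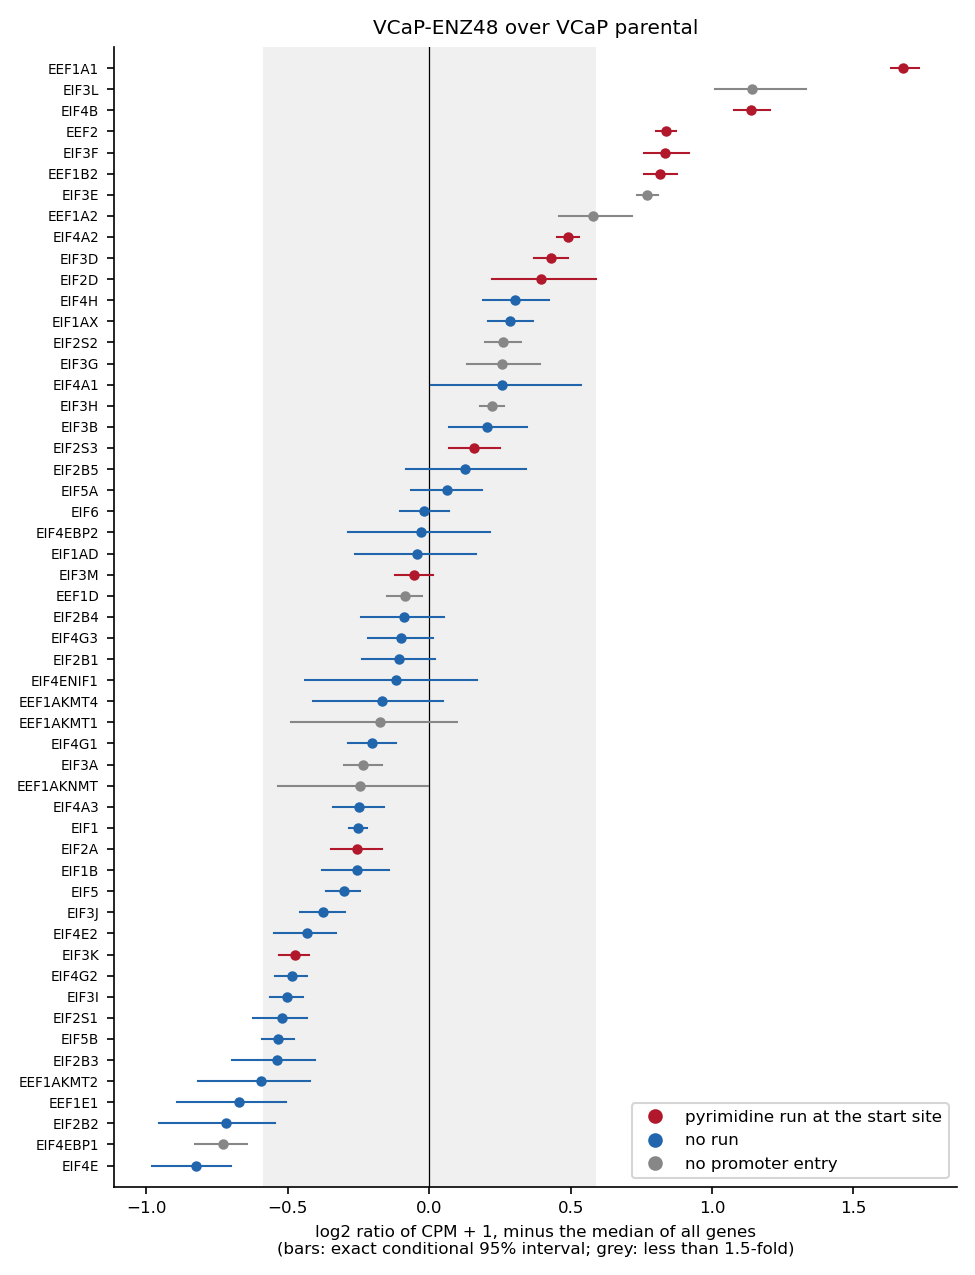
Relative log2 ratio of VCaP–ENZ48 over VCaP parental for the 53 members averaging 10 CPM or more, with exact conditional 95% intervals. The grey band is under 1.5-fold and colours give the start site; 5 members with the pyrimidine run lie above the band and 0 below. Of those with an entry and no run 0 lie above and 4 below, and of those with no entry 2 lie above and 1 below. Of all 7729 genes 17.5% lie above the band and 15.0% below.

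The 12 measured members with the pyrimidine run had a median relative log2 ratio of 0.46 in the VCaP pair, and 9 of them were above 0. Of these 12, EEF1A1, EIF4B, EEF2, EIF3F and EEF1B2 were at least 1.5-fold higher (41.7%, against 17.5% of all genes). At least 1.5-fold lower were 0, against 15.0% of all genes. EIF3K, EIF2A and EIF3M carried the run but had ratios of −0.48, −0.25 and −0.05. The 30 measured members with an entry and no run had a median of −0.22, with 0 at least 1.5-fold higher and 4 lower. That lower share, 13.3%, was near the 15.0% of all genes. The 11 measured members with no entry, whose starts were not examined, had a median of 0.22. Of these, EIF3L and EIF3E were higher (18.2%, near the share of all genes) and EIF4EBP1 was lower (9.09%). Without EEF1A1 the median of members with the run was 0.43. Outside the members, the 46 measured ribosomal protein genes with the run had a median of 0.49, with 14 higher (30.4%) and 0 lower. All 77 measured ribosomal protein genes, with or without it, also had a median of 0.49, with 26 higher (33.8%) and 0 lower. Over 439 other genes with such a run the median was 0.03, with 13.7% higher and 11.6% lower. Over 5450 others with an entry and no run it was −0.05, with 12.8% higher and 16.5% lower. Members with the run summed to 3101 CPM in VCaP parental and 4531 CPM in VCaP–ENZ48, and members with an entry and no run to 4310 and 3379 CPM.

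Scaling and cell state moved with these differences. Relative to CPM, TMM scaling shifted every log2 ratio of the VCaP pair by −0.29 and median-of-ratios scaling by −0.23. With TMM, 3 members were at least 1.5-fold higher (EEF1A1, EIF3L and EIF4B) and 20 lower, and all 7 higher members stayed above 0. These TMM ratios were not centred on the median gene. The share of all genes past 1.5-fold is not given for TMM, so these counts have no background beside them. Among low-cycling cells alone, 5 of the 7 higher members stayed past 1.5-fold, with EEF1A1 at 1.46 and EIF3L at 1.03. EEF2 was then at 0.53 and EIF3E at 0.52, while EIF4EBP2, within the limit among all cells, was past it at 0.67. Of the 5 lower members EIF2B2 stayed past the limit at −0.62, whereas EIF4E was at −0.40 and EIF4EBP1 at −0.49.

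Low-cycling and other cells were also compared within each library, a separate contrast that uses the same grouping of members. Members with the run were at 3618 CPM (3562 to 3673) in the 250 low-cycling cells of VCaP parental and at 2945 CPM (2918 to 2973) in its other 747 cells. In VCaP–ENZ48 the low-cycling cells had 4576 CPM (4539 to 4614) and the other 103 cells 4165 CPM (4066 to 4265). In LNCaP–ENZ168 the values were 5217 CPM (5142 to 5294) and 4673 CPM (4593 to 4753). Members with an entry and no run lay the other way in all 3 libraries, at 4236 and 4333 CPM in VCaP parental, 3332 and 3751 CPM in VCaP–ENZ48 and 5226 and 5568 CPM in LNCaP–ENZ168. EIF4E was at 54.8 CPM (48.2 to 62.1) in low-cycling cells of VCaP parental and 82.4 CPM (77.8 to 87.1) in its other cells. EIF4EBP1 was lower in low-cycling cells of each library, at 134 against 177 CPM in VCaP parental, 90.1 against 136 CPM in VCaP–ENZ48 and 114 against 185 CPM in LNCaP–ENZ168. Cells of 1 library are not replicates, and these intervals cover counting error only.

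EEF1A1 has many near-identical pseudogenes, so its reads can be assigned to their rows. The 37 EEF1A1 pseudogene rows summed to 144 CPM in VCaP parental, 614 CPM in VCaP–ENZ48 and 127 CPM in LNCaP–ENZ168. Together with them EEF1A1 was at 386, 1355 and 532 CPM, and the relative log2 ratio of the VCaP pair was 1.88, so the higher level in VCaP–ENZ48 was not smaller when these rows were counted in. For EEF1G, an eEF1B subunit, the pseudogene rows at 22.8, 97.1 and 16.3 CPM exceeded the gene itself at 2.10, 6.71 and 4.44 CPM. In addition, 99.7% of its exonic bases are shared with another gene on the same strand, and its level is therefore not known from these rows. EIF3C and EIF3CL, near-identical copies, had at most 2.80 CPM and are uncertain for the same reason.

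**Figure D3:**
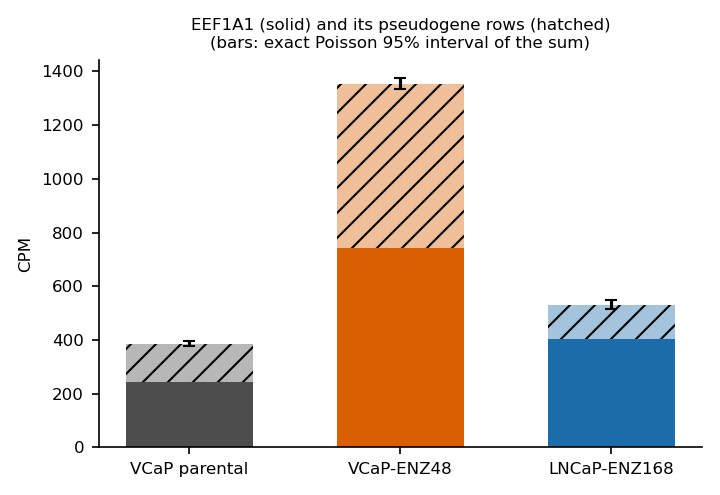
CPM of EEF1A1 (solid) and of its 37 pseudogene rows (hatched) in each library, with the exact Poisson 95% interval of their sum. The sum is 386 CPM in VCaP parental, 1355 CPM in VCaP–ENZ48 and 532 CPM in LNCaP–ENZ168.

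Single cells were compared after thinning each to 2000 UMIs, which removed the difference in depth but left out 30 shallow cells of VCaP–ENZ48 and 1 of LNCaP–ENZ168. Members with the run had a median of 6 UMIs per cell in VCaP parental (5th to 95th percentile 2 to 11), 8 in VCaP–ENZ48 (3 to 16) and 9 in LNCaP–ENZ168 (4 to 17). Members with an entry and no run had medians of 8 (4 to 14), 6 (3 to 12) and 10 (5 to 17). The distributions overlapped widely, as the plot of UMIs per cell shows. Without thinning, the median cell had 3036, 4200 and 4814 CPM of members with the run in the same order.

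**Figure D4:**
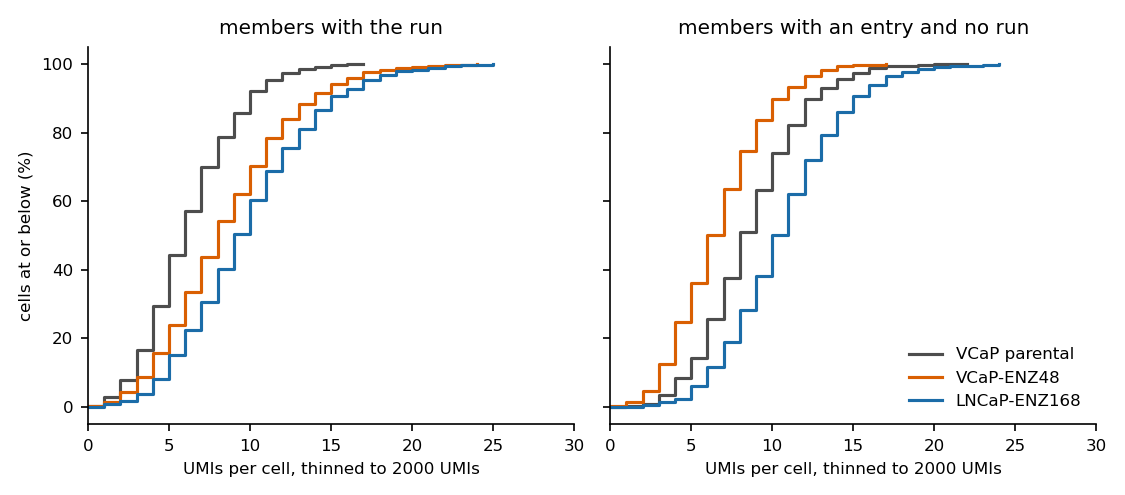
Cumulative share of cells by UMIs per cell after thinning to 2000 UMIs, for members with the pyrimidine run (left) and with an entry and no run (right). On the left VCaP parental has the lowest median (6 UMIs), and on the right VCaP–ENZ48 has (6 UMIs).

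The second comparison set LNCaP–ENZ168 beside VCaP–ENZ48, which had the same drug and dose. Cell line, time and medium differ together here and cannot be told apart, and the comparison shares VCaP–ENZ48 with the first. Of 54 members with enough UMIs, 9 were at least 1.5-fold higher than the median gene in LNCaP–ENZ168, or 16.7%, where 26.8% of 8854 genes were. At least 1.5-fold lower were 14, or 25.9%, where 28.1% of all genes were. The median relative log2 ratio was −0.21. Without centring, CPM ratios were above 0 for 41 of the 54 members and 25 were at least 1.5-fold higher. On that scale the median of all 8854 genes was 0.65, itself past the 1.5-fold limit of 0.585. The members' median was 0.45, so these counts are not a rise particular to the members. For members named below whose sign differed between these scales, both values are printed.

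The members furthest below the median gene in LNCaP–ENZ168 were EIF1AX, EIF3E, EEF1B2, EEF1A1 and EIF3L, and these 5 were also at least 1.5-fold lower in plain CPM. EIF1AX (chromosome X, 20124525 to 20141838), which helps to place the initiator tRNA, was at 66.4 CPM in LNCaP–ENZ168 and 160 CPM in VCaP–ENZ48, a relative log2 ratio of −1.91 (−2.08 to −1.78). VCaP parental had 137 CPM, so both VCaP libraries lay above LNCaP–ENZ168. EIF3E was at 362 CPM against 844 CPM, a ratio of −1.87 (−1.94 to −1.81). EEF1B2 at −1.55 (−1.65 to −1.46) and EEF1A1 at −1.52 (−1.59 to −1.46) followed, but in plain CPM LNCaP–ENZ168 had more EEF1A1 than VCaP parental, at 405 against 242 CPM. Below the limit were also EIF3D at −1.19, EIF2S2 at −1.01, EIF4H at −0.99, EIF4B at −0.89, EIF1AD at −0.88, EEF1A2 at −0.84, EIF4A2 at −0.73, EIF3H at −0.71 and EIF3J at −0.60. Of the 14 lower members 13 kept the sign in plain CPM, and EIF3J did not, at 0.06.

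The 9 higher members were higher under every scaling tried. EEF2KMT, which methylates eEF2, was at 21.7 CPM in LNCaP–ENZ168 and 4.20 CPM in VCaP–ENZ48, a relative log2 ratio of 1.47 (1.27 to 2.18). EIF3G (chromosome 19, 10115014 to 10119918), an RNA-binding eIF3 subunit, was at 274 CPM against 63.1 CPM, a ratio of 1.45 (1.35 to 1.58), and VCaP parental had 55.1 CPM. EEF1E1 at 1.01 and EIF2B2 at 1.00 were the members that had been lower in VCaP–ENZ48 in the first comparison. They were followed by EEF1AKNMT at 0.89, EIF4EBP2 at 0.78, EIF3A at 0.72, EIF4G2 at 0.71 and EIF3I at 0.63. Of the 12 measured eIF3 subunits 3 were higher (25%, against 26.8% of all genes) and 5 lower (41.7%, against 28.1%). In plain CPM the 5 lower subunits ranged from −1.22 for EIF3E to −0.06 for EIF3H and 0.06 for EIF3J, and EIF3E and EIF3L were past 1.5-fold. Other members at the ends of their role groups lay within 1.5-fold. EIF1B was the highest start codon factor at 0.45 and EIF2S3 the highest delivery factor at 0.23. EIF2B4 at −0.38, EIF4EBP1 at −0.06 and EEF1AKMT1 at −0.51 were the lowest of their groups, and each was above 0 in plain CPM, at 0.27, 0.60 and 0.15. EIF5B had a relative log2 ratio of −0.55, EIF6 of −0.36, EIF4A3 of −0.22 and EIF5A of 0.01. In plain CPM each of these was above 0, at 0.11, 0.30, 0.43 and 0.66 in the same order. EEF2 was at 1793 CPM in LNCaP–ENZ168, but its relative ratio was 0.15 (0.12 to 0.19).

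Of the 12 measured members with the run 0 were at least 1.5-fold higher (26.8% of all genes were) and 5 lower (41.7%, against 28.1% of all genes), with a median of −0.44, which was 0.22 in plain CPM. The 492 other genes with the run had a median of −0.0014, with 23.4% higher and 24.0% lower. Ribosomal protein genes had a median of −2.08, and 73 of 77 were at least 1.5-fold lower. The 30 measured members with an entry and no run had a median of −0.07, with 5 higher and 4 lower. The 12 measured members with no entry had a median of −0.28, with 4 higher and 5 lower.

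**Figure D5:**
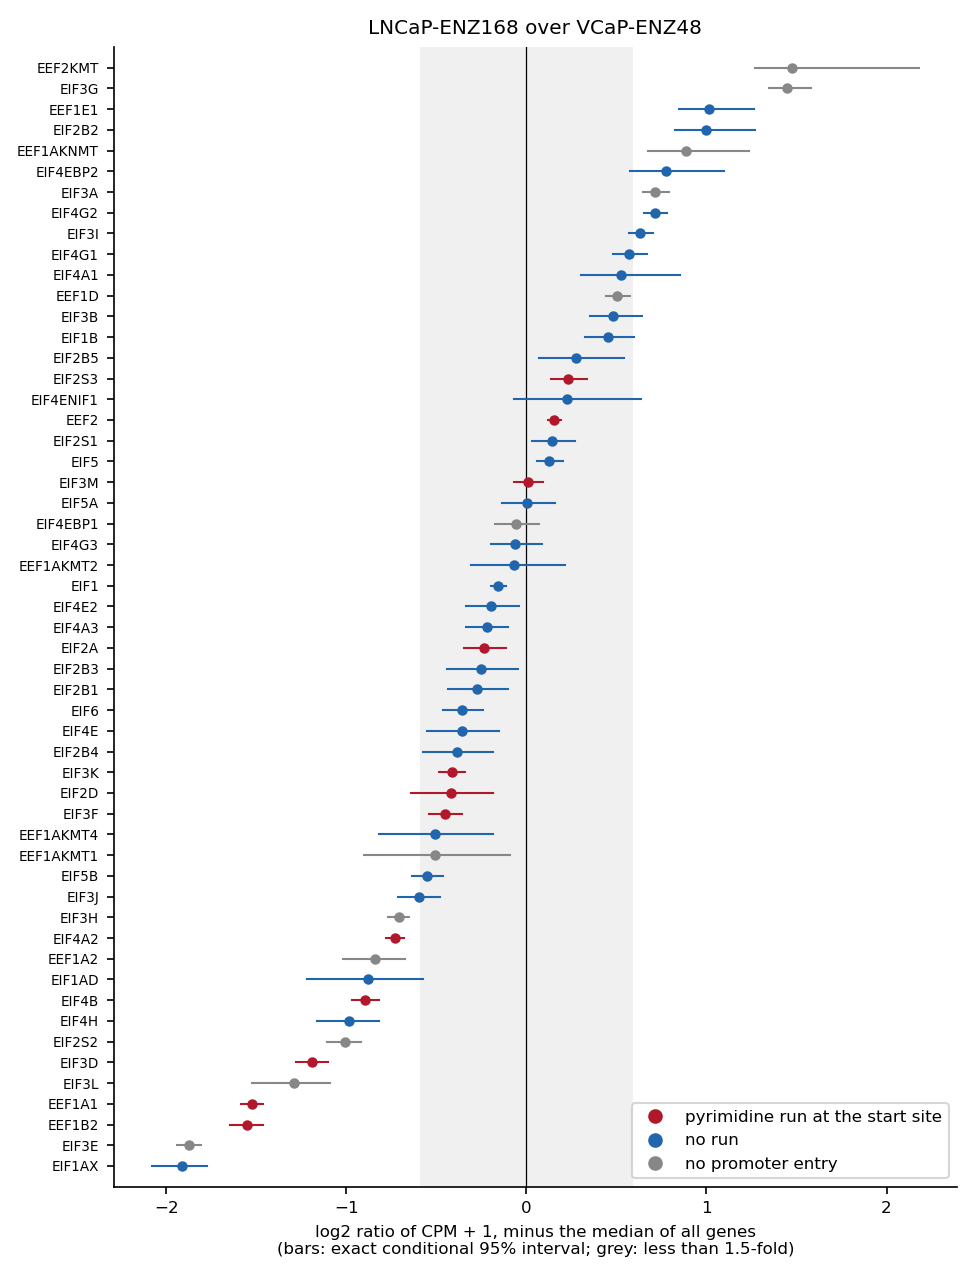
Relative log2 ratios between LNCaP–ENZ168 and VCaP–ENZ48 (the latter as denominator) for the 54 members averaging 10 CPM or more, with exact conditional 95% intervals, coloured by start site. EIF1AX lies lowest at −1.91 and EEF2KMT highest at 1.47, and the grey band is under 1.5-fold.

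Shares within pairs of related genes do not depend on scaling between libraries. EEF1A2 made up 16.6% of the UMIs of EEF1A1 and EEF1A2 in VCaP parental (exact Clopper-Pearson 95% interval 15.6 to 17.6%), 8.53% in VCaP–ENZ48 (8.03 to 9.06%) and 13.0% in LNCaP–ENZ168 (11.8 to 14.3%). The intervals of the 3 libraries did not overlap, but EEF1A1 pseudogene rows were not part of the share. With those rows EEF1A1 had 7525 UMIs in VCaP parental, 19373 in VCaP–ENZ48 and 3358 in LNCaP–ENZ168. EEF1A2 had 939, 988 and 382 UMIs in the same order, so its share would be lower in each library. Intervals of that share were not calculated, so the separation is shown only without the pseudogene rows. EIF4EBP1 made up 90.9% of the EIF4EBP1 and EIF4EBP2 UMIs in VCaP parental (89.9 to 91.8%), 86.0% in VCaP–ENZ48 (84.2 to 87.7%) and 76.9% in LNCaP–ENZ168 (74.5 to 79.3%). EIF1B, the paralog of EIF1, took 7.01% of the EIF1 pair (6.68 to 7.36%) in VCaP parental, 6.97% (6.54 to 7.42%) in VCaP–ENZ48, with overlapping intervals, and 10.3% in LNCaP–ENZ168 (9.67 to 10.98%). EIF5A2 was at 7.39%, 6.06% and 8.68% of the EIF5A pair in the same order, with overlapping intervals. EIF4A2 held 97.7%, 98.0% and 95.2% of the EIF4A1 and EIF4A2 UMIs, with EIF4A1 uncertain as above.

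Other genes of translation, a list of 55 with 53 found, held few genes past 1.5-fold in the VCaP pair. Of 45 measured, 2 were higher (4.44%, against 17.5% of all genes) and 1 lower (2.22%, against 15.0%), with a median of −0.04. The higher genes were EEFSEC, the selenocysteine elongation factor, at 7.43 and 19.3 CPM (1.33), and DHPS, which makes the hypusine residue of eIF5A, at 35.6 and 60.5 CPM (0.81). The lower gene was ABCF1, which binds eIF2, at 147 and 81.8 CPM (−0.77). LARP1, which binds mRNAs with the TOP motif, was at 71.2 and 66.6 CPM (−0.03) and was named after its value was seen. In LNCaP–ENZ168 over VCaP–ENZ48, 12 of 47 measured were higher (25.5%, against 26.8% of all genes) and 12 lower (25.5%, against 28.1%). The highest was the release factor GSPT2 at 34.4 CPM against 0.70 CPM (3.72), and the lowest was the S6 kinase gene RPS6KB2 at 36.6 against 73.6 CPM (−1.64).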

How the data were processed

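Single-cell RNA was captured by Drop-seq in 3 libraries. Per the study's methods the authors processed reads with Drop-seq tools, STAR and Picard on GRCh38 with Gencode annotation, and deposited UMI counts per gene and barcode. Cells with at least 300 genes, 500 UMIs and at most 25% mitochondrial UMIs were kept, and doublets were not called. Counts were summed per library and scaled to CPM. Relative log2 ratios used a pseudocount of 1 CPM and a minimum mean of 10 CPM. Intervals were exact Poisson, conditional and Clopper-Pearson at 95%, and a count of 0 allowed 3 counts. With 1 library a group no test was made.

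Low-cycling cells had at most 7 UMIs in the 97 S and G2M genes of Seurat 5.3.0 after thinning to 2000 UMIs, the lower quartile of VCaP parental. Gene coordinates came from Gencode 44 on GRCh38, a later version than the authors used, and starts from RefSeq. Named genes were all members at least 1.5-fold from the median, the highest and lowest of each role, the pairs and 11 chosen members. Members, lists and rules were chosen with earlier results of these data known. The ratio calculation and its interval were tested on simulated library sums, and the other steps were not tested in this way. The tools were Python 3.11.15, R 4.3.3 and edgeR 4.0.16.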

Additional observations from a re-analysis of the deposited data

How the results depend on the processing

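No paired analysis was possible because the groups hold single libraries. Of the alternatives to the counts, medians, sums and shares, 229 values were classed as unchanged, 61 as moved and 3 as reversed. Ratios of single members were classed apart, with 1120 values unchanged, 559 moved and 1 reversed. Unchanged allowed some difference in a count. With TMM the members higher in LNCaP–ENZ168 over VCaP–ENZ48 went from 9 to 13 and were still classed so. The limits set around a median came from the members' counting intervals and do not measure the spread among members. The cause of each move was not tested, apart from fewer genes or cells entering. Medians by start site, in all settings, were added after seeing the data. Depth limits members under 10 CPM.

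Shares of all genes past the limit are not given for the settings of this section, so its counts of members have no background beside them. At 2-fold, 3 members were higher and 0 lower in the VCaP pair, and 3 higher and 7 lower in LNCaP–ENZ168 over VCaP–ENZ48. In uncentred CPM, 8 were lower in the VCaP pair and the median of members with the run was 0.39. In LNCaP–ENZ168 over VCaP–ENZ48, uncentred CPM gave 25 higher and 5 lower, and the medians were 0.45 for members, 0.22 with the run and 0.59 without it, so the first and second reversed. EIF3J reversed to 0.059. With TMM, 3 were higher and 20 lower in the VCaP pair, with medians of −0.44, 0.10 and −0.58 in the same order, and the LNCaP–ENZ168 median with the run was −0.31. Median-of-ratios scaling gave 3 and 14, with −0.38, 0.16 and −0.52, then 14 higher in the other comparison, with −0.043 for members and −0.27 with the run. Totals without mitochondrial and ribosomal protein genes gave 17 higher and 7 lower there, with a reversed member median of 0.20, −0.032 with the run and 0.34 without.

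A minimum of 1 CPM gave 14 lower in the VCaP pair, with medians of −0.29, 0.26 and −0.40, and 15 higher in the other comparison, with −0.063 and −0.29. A minimum of 50 CPM gave 1 lower in the VCaP pair, with 0.079, 0.66 and −0.088. Low-cycling cells gave 2 lower and 0.26 with the run in the VCaP pair, a sum of 10134 CPM in VCaP parental, 10.997% for EIF1B in LNCaP–ENZ168 and 93.5% for EIF4EBP1 in VCaP parental. Barcodes ending in a base, which left 138 and 127 cells of VCaP parental and VCaP–ENZ48, gave −0.61 with the run in LNCaP–ENZ168 over VCaP–ENZ48 and 10616 CPM in VCaP–ENZ48. EEF1A2 was then at 18.1% in VCaP parental and 9.15% in VCaP–ENZ48, EIF1B at 7.51% and 6.52%, and in VCaP–ENZ48 EIF4A2 was at 98.8%, EIF5A2 at 8.33% and EIF4EBP1 at 87.8%. Cells of 5000 to 20000 UMIs gave 10093 CPM in VCaP–ENZ48, with 9.40% for EEF1A2 and 7.67% for EIF1B. The sums of LNCaP–ENZ168 and VCaP–ENZ48 were 12947 and 10265 CPM with all barcodes, and 13453 and 10607 CPM at most 10% mitochondrial UMIs. In VCaP–ENZ48 the sum was 10283 CPM without barcodes above 3 times the median and 9970 CPM with equal weight for each cell.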

Other observations

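Pseudogene rows differed more between the VCaP libraries than the genes they derive from. The 119 rows left out by the rule summed to 214 CPM in VCaP parental, 839 CPM in VCaP–ENZ48 and 197 CPM in LNCaP–ENZ168. Without the rows of EEF1A1, the other 82 summed to 70.2, 225 and 70.0 CPM, so the difference was not confined to EEF1A1. For 13 members measured in the VCaP pair with at least 20 pseudogene UMIs in both VCaP libraries, the ratio of VCaP–ENZ48 over VCaP parental was higher for the pseudogene rows than for the gene in 13 of 13. Pseudogene UMIs equalled 59.4% of the EEF1A1 UMIs in VCaP parental, 82.9% in VCaP–ENZ48 and 31.3% in LNCaP–ENZ168. For EIF1, which has no pyrimidine run, they equalled 0.346%, 0.954% and 0.146%. For EIF3L they equalled 11.2%, 17.3% and 2.21%. The same count was not made over pseudogene or other low-level rows of the remaining genes, so this may not be particular to the members. VCaP–ENZ48 also had more genes listed than VCaP parental, at 28928 against 27348, although it held fewer UMIs. The part of read assignment in the pseudogene differences was not tested.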
